A study of Homo sapiens with 6 samples.

Results

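GSX2 peaks with several summits are stretches of the genome where the peak caller reported more than 1 maximum of GSX2 signal inside a single interval. They were chosen by the deposited peak rows themselves: an interval with the same chromosome, start and end on 2 or more rows of a replicate's list, on chromosomes 1 to 22 or X, was taken as multi-summit. Intervals of the 3 replicates sharing 1 bp or more were then joined, and 596 of the 15743 merged regions held a multi-summit interval in at least 1 replicate. The other 15147 regions had a single summit in every interval. Because the number of rows chose the members, their widths, spacings and folds below describe them and support nothing by themselves; what the other replicates showed at the same place was not used to choose a replicate's multi-summit intervals.

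The study mapped GSX2 in H9, an established human embryonic stem cell line carrying a TRE3G 2xFLAG-GSX2 WT transgene, that is, wild-type GSX2 with a FLAG tag behind a doxycycline-responsive promoter. All 3 immunoprecipitated samples belong to 1 group: cells taken through an LGE-like differentiation (lateral ganglionic eminence, the embryonic source of striatal neurons), given 100 ng/mL doxycycline for 12 h from day 10, collected at day 10.5 and precipitated with the M2 FLAG antibody. They came with 3 input libraries, whose values were not used here, and no precipitation from cells lacking the transgene was analysed here. The labels number the replicates without saying whether they were separate cultures, so the spread between them may be technical. GSX2 was measured at the level its transgene gave, and peak lists hold no marker of cell identity, so the differentiation label could not be checked.

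GSX2 is a homeodomain transcription factor of forebrain progenitors. Homeodomains bind short AT-rich sites built around the core TAAT, alone or as pairs, and regulatory regions often carry many such cores. A summit is the position where fragments pile up highest, so it marks the best estimate of a bound site within a peak.

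Some multi-summit intervals fell on gene starts, where sequence was at hand in RefSeq's windows of 250 bases before to 50 bases after a start site (GRCh38.p14, which has the coordinates of hg38). Of 34961 windows, 50 held a summit of a multi-summit interval; they belong to 43 genes, 30 protein-coding and 13 long noncoding, and to 40 member regions. In 5 of them 2 summits of the same replicate fell inside the window, and those 5 are printed first, since they show the sequence between summits; the promoters of DUSP6, a phosphatase of ERK induced by FGF signalling, and of DCT, an enzyme of melanin synthesis, follow as examples with 1 summit per replicate. These 7 were picked after their values were seen. Each is written 5′ to 3′ in the direction of the gene, and capitals mark the homeodomain core TAAT or, where it lies on the other strand, ATTA. In the palindrome TAATTA the pair overlap.
TMED10: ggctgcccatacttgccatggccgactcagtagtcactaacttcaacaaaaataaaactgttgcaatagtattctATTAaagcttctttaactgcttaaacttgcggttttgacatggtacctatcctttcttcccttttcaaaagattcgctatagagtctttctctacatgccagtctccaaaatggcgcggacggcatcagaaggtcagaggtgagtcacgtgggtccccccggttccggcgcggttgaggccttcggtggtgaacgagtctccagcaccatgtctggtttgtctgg
YJU2: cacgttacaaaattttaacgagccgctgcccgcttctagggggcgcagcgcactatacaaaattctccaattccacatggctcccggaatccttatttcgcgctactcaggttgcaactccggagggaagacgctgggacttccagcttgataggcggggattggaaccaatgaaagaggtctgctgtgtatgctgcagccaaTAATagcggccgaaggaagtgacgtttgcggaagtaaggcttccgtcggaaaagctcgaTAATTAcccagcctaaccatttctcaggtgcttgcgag
COPS7A: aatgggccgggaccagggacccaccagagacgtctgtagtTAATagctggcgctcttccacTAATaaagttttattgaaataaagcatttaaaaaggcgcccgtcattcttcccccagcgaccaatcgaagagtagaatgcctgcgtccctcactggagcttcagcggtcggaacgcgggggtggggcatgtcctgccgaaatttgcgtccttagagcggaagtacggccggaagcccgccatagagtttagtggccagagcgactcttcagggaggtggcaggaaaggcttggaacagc
LOC102723670: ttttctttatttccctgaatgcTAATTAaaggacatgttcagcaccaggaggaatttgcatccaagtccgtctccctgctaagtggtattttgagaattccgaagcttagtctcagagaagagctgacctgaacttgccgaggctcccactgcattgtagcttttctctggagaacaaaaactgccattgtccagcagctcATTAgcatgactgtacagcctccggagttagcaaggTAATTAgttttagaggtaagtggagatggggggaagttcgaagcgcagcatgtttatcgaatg
LOC105372592: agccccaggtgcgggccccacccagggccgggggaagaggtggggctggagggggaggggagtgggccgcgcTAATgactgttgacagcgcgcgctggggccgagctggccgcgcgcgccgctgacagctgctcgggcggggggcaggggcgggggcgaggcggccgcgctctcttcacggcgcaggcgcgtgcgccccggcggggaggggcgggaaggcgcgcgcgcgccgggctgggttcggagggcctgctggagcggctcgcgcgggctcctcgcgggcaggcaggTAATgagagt
DUSP6: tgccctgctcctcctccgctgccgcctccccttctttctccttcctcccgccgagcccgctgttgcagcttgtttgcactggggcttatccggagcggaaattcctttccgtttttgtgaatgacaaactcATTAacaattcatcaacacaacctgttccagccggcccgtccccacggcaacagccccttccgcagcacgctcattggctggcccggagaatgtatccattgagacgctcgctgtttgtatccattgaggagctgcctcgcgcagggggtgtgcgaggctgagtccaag
DCT: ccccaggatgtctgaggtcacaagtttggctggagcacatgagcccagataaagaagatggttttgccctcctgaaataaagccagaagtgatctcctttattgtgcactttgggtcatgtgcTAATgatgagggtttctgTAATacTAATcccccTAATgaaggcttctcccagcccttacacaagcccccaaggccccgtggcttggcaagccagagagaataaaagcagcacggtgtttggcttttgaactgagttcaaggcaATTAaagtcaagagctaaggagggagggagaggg

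In these windows, bases are counted from 1 at the 5′ end and folds are the authors' fold enrichments over the caller's background, a linear ratio. The TMED10 window (chr14:75176563-75176862, minus strand; a cargo receptor of the early secretory pathway) held summits at bases 6 and 169 in replicate 2, with folds of 7.59 and 6.68. Replicate 3 placed its summits at bases 37 and 185, with folds of 6.48 and 8.20, so the stronger summit was the upstream one in replicate 2 and the downstream one in replicate 3. The YJU2 window (chr19:4246830-4247129, plus strand, a splicing factor) held summits at bases 117 and 276 in replicate 2, with folds of 10.8 and 9.82. They lay 88.5 and 9.5 bp from the centre of the nearest core. Replicates 1 and 3 called only 1 summit in that region.

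In the COPS7A window (chr12:6723796-6724095, plus strand, a COP9 signalosome subunit) replicate 1 placed a summit of fold 8.40 at base 61, 2.5 bp from a core. It placed another of fold 4.58 at base 284, 220.5 bp from any core. Replicate 3 called only 1 summit in that region and replicate 2 had no interval there. LOC102723670, a long noncoding RNA (chr14:55957931-55958230, plus strand), had summits at bases 76 and 228 in replicate 2, with folds of 8.97 and 12.7. Replicate 1 placed 1 summit of a multi-summit interval in that window, at base 165 between those positions, with a fold of 4.48. LOC105372592, another long noncoding RNA (chr20:32536343-32536642, plus strand), had summits at bases 46 and 266 in replicate 1 and at 30 and 279 in replicate 3. Its upstream summit was the stronger in each, at 8.69 against 4.96 in replicate 1 and 9.72 against 6.25 in replicate 3. The DUSP6 window (chr12:89352452-89352751, minus strand) held a summit of fold 15.8 at base 126 in replicate 2, 7.5 bp from its only core. DCT (chr13:94479633-94479932, minus strand) had summits at base 235 in replicate 2 and base 257 in replicate 3, with folds of 9.21 and 6.76. Across these examples summits lay both next to a core and far from any.

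Counted over all windows, TAAT on either strand stood in 43 of the 50 windows with a multi-summit interval's summit (86.0%, 95% Wilson interval 73.8 to 93.0). The share was 76.6% (73.3 to 79.7) of the 676 windows holding a summit of a single-summit region, and 50.2% of all 34961 windows. The palindrome TAATTA stood in 9 of the 50 (18.0%, 9.77 to 30.8), 13.0% of the 676 and 4.85% of all. Windows at multi-summit intervals were 45.4% A or T, against 42.0% at single-summit regions and 42.4% over all, a difference whose part in these shares was not tested. The Wilson intervals of the first and second of these sets overlap for each motif, and neither a motif match nor its absence says whether GSX2 contacts those letters. Wilson intervals here and below cover counting error only. Those for windows take each window as independent, though the 50 came from 40 regions and the 676 from 572. Some of the 50 share sequence.

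Within each list, multi-summit intervals were a small share. Replicate 1 had 338 of 9859 intervals (3.43%), replicate 2 had 195 of 7471 (2.61%) and replicate 3 had 258 of 9122 (2.83%), a mean of 2.96% ± 0.42 (SD, n = 3). Most of them, 92.5% ± 1.6, carried exactly 2 summits, and 3 summits occurred in 22, 15 and 14 intervals. Only 2, 3 and 2 intervals carried 4 or more, with up to 10, 9 and 12. The lists give no read counts, so the depth behind each interval is unknown.

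Multi-summit intervals were wide. Their median width was 610.5, 503 and 481 bp in replicates 1, 2 and 3, against 274, 220 and 220 bp for single-summit intervals. Dividing each list by quartiles of width, no interval of the lowest group was multi-summit, while in the highest group 13.1%, 10.1% and 11.0% were. The strongest summit of a multi-summit interval had a median fold of 8.30, 9.21 and 8.71, against 7.09, 7.70 and 7.42 for single-summit intervals. From the lowest to the highest quartile group of fold the multi-summit share went from 1.18% to 4.91%, from 0.80% to 4.55% and from 0.61% to 4.82%. At the border of the rule, the narrowest intervals with 2 rows spanned 271, 200 and 196 bp, while the widest with 1 row spanned 1173, 960 and 1140 bp. Width alone therefore did not define the members: 177, 120 and 198 single-summit intervals were wider than the median multi-summit interval of their own list.

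Spacing between neighbouring summits was similar in replicates 2 and 3 and longer in replicate 1. The median spacing was 296.5 bp in replicate 1, from 370 spacings, 234 bp in replicate 2, from 221, and 236.5 bp in replicate 3, from 284, a mean of 255.7 bp ± 35.4 (SD, n = 3). Replicate 1 stood above the other replicates over most of the range, with quartiles of 216 and 394.5 bp against 177 and 308 in replicate 2 and 180 and 308.5 in replicate 3. Spacings from 350 to under 450 bp made up 22.7% in replicate 1, 9.50% in replicate 2 and 11.3% in replicate 3, and those under 150 bp made up 6.22%, 9.95% and 13.0%. The closest summits were 54, 74 and 73 bp apart and the farthest 1353, 688 and 716 bp. The narrowest interval of any kind in each list was 193, 159 and 157 bp wide, again larger in replicate 1, and the median spacing was 1.54, 1.47 and 1.51 times that width. The part of each list's smallest width in the spacing was not tested.

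**Figure D1:**
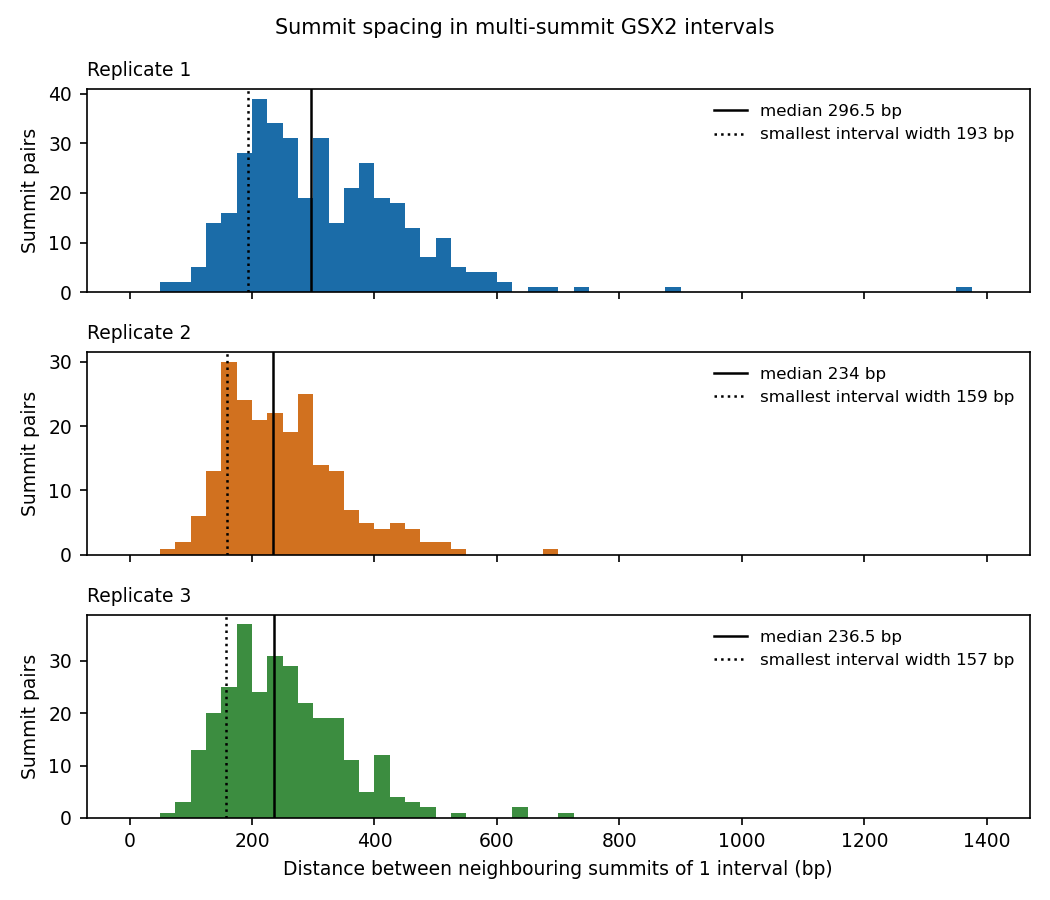
Counts of summit pairs by the distance between neighbouring summits of the same interval, in bp, for each of the 3 replicates; the solid line is the median and the dotted line the smallest interval width in that list. Replicate 1 reaches farther to the right, with a median of 296.5 bp against 234 and 236.5 bp.

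Lesser summits were set against the strongest of their interval. Only summits that the caller reported are in the lists, so ratios of weaker maxima are missing here. The fold of a lesser summit divided by that of the strongest summit in its interval had a median of 0.78, 0.76 and 0.76 (0.77 ± 0.01), and 54.9%, 51.1% and 51.8% of lesser summits reached at least 0.75 of the strongest. The lower quartiles of the ratio were 0.60, 0.60 and 0.59, and the lowest ratios were 0.17, 0.23 and 0.19. In absolute terms the median lesser summit had a fold of 6.02, 6.78 and 6.49, below the single-summit medians of 7.09, 7.70 and 7.42 in every replicate. In intervals with 2 summits the stronger lay on the side of the lower coordinate in 46.8%, 41.8% and 45.0%.

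How often the several-summit form came back in a separately called replicate was the main question the 3 lists could answer. Of the 338 multi-summit intervals of replicate 1, 79 overlapped a multi-summit interval of replicate 2 (23.4%) and 90 one of replicate 3 (26.6%), while the single-summit intervals of replicate 1 did so in 1.05% and 1.55%. For the 195 of replicate 2, the values were 79 in replicate 1 (40.5%) and 68 in replicate 3 (34.9%), against 2.89% and 2.23% of its single-summit intervals. For the 258 of replicate 3 they were 90 in replicate 1 (34.9%) and 68 in replicate 2 (26.4%), against 2.29% and 1.16%. Averaged over the 3 choosing replicates, 31.1% ± 6.4 of multi-summit and 1.86% ± 0.64 of single-summit intervals met the form again. The multi-summit share was the higher in each of the 6 ordered pairs of replicates. These are 3 pairs read in both directions, so neither the 6 shares nor the 3 means by choosing replicate are independent. An exact two-sided sign-flip test over 3 replicates gave p = 0.25 for the mean difference of 29.2 percentage points. That is the smallest p that 3 replicates allow.

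Presence as such differed as well. Any interval at all was found in the other replicate for 85.2% ± 5.6 of multi-summit and 53.3% ± 5.8 of single-summit intervals, a difference of 31.9 percentage points. Among those found, 36.2% ± 5.6 of the former and 3.40% ± 0.81 of the latter met a multi-summit interval; the exact sign-flip p was 0.25 for these comparisons too. So most multi-summit intervals had a counterpart, and in most counterparts only 1 summit was called. At like widths presence was closer between the forms from 300 bp up. It was 73.0% for multi-summit and 74.0% for single-summit intervals from 300 to under 450 bp. From 450 to under 600 bp it was 83.7% and 84.5%, and at 600 bp or more 94.9% and 90.2%. Under 300 bp, where multi-summit intervals were few, it was 79.0% ± 18.7 and 45.1% ± 9.0. The part of width in the full difference was not tested.

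Wider and stronger intervals recurred in that form more often. Among multi-summit intervals under 300 bp, 2.38% ± 4.12 recurred as multi-summit, then 10.2% ± 6.7 from 300 to under 450 bp, 29.7% ± 8.7 from 450 to under 600 bp and 52.4% ± 15.2 at 600 bp or more. Single-summit intervals of the same widths overlapped a multi-summit one in 0.96% ± 0.55, 3.56% ± 2.06, 8.46% ± 3.53 and 18.5% ± 6.4. Under 300 bp there were only 5, 14 and 11 multi-summit intervals, and the spread there covers both forms. At 600 bp or more each replicate's multi-summit share lay above its single-summit share: 35.1% against 11.4% in replicate 1, 63.7% against 23.7% in replicate 2 and 58.5% against 20.6% in replicate 3. Median folds of the 2 forms at that width were 9.74 and 10.6, 12.9 and 10.1, and 11.5 and 10.2. By quartile group of fold, recurrence of multi-summit intervals was 13.2% ± 9.5, 21.0% ± 1.3, 36.4% ± 11.1 and 54.0% ± 4.5 from weakest to strongest.

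**Figure D2:**
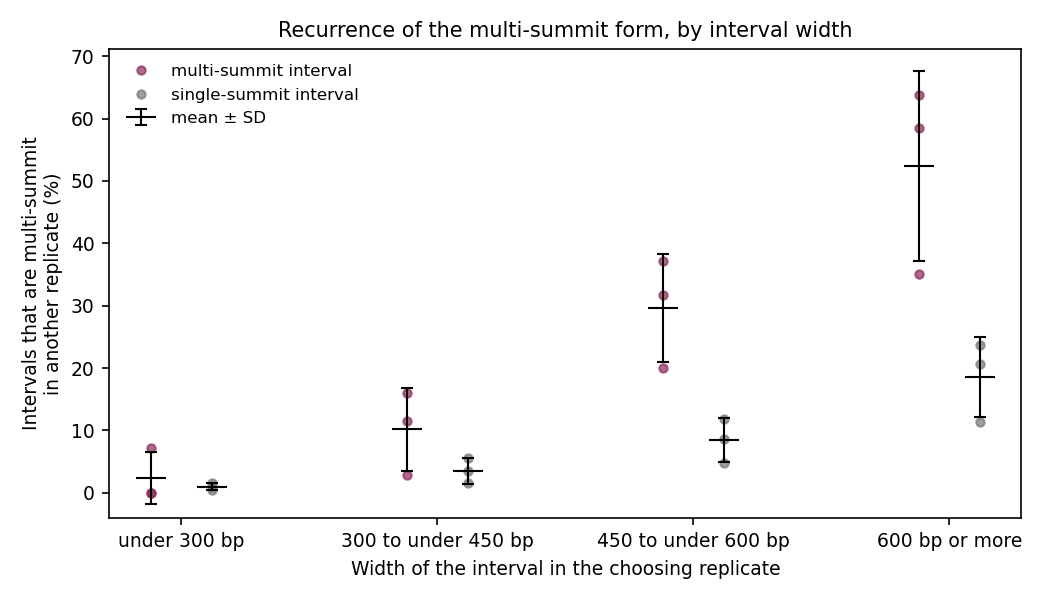
Percent of intervals that overlap a multi-summit interval of another replicate, by interval width in bp, for multi-summit and single-summit intervals; points are the 3 choosing replicates and bars the mean ± SD. At 600 bp or more the mean is 52.4% for multi-summit and 18.5% for single-summit intervals.

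Over merged regions, 211 had the form in replicate 1 alone, 90 in replicate 2 alone and 142 in replicate 3 alone. It was shared by 37 regions between replicates 1 and 2, by 48 between 1 and 3 and by 26 between 2 and 3, and 42 regions had it in all 3. At least 2 replicates thus had it in 153 regions (25.7%). As places of binding, the members were common to the lists: 415 of 596 (69.6%, 65.8 to 73.2) held an interval of every replicate, 126 of 2 and 55 of 1, while 3122 of 15147 single-summit regions (20.6%) held all 3. Regions with more intervals had more chances to become members, and the shares from 1 choosing replicate above are free of that. They are not free of width, since wider intervals also had more chances. Single-summit intervals met the form in 0.96% under 300 bp and in 18.5% at 600 bp or more. The shares by width above are therefore the closer comparison.

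What the other replicate called at the place of a 2-summit interval was counted over 1466 such interval and replicate combinations. It was a multi-summit interval in 28.4% ± 5.1 and 1 single-summit interval across both positions in 29.5% ± 12.0. A single interval covered the stronger position only in 16.7% ± 6.1 and the lesser only in 6.44% ± 2.68. In 2.39% ± 2.35 the 2 positions fell in 2 separate intervals, and in 15.7% ± 5.9 there was no interval. The spread between replicates was large for a single interval across both positions, at 15.9% when replicate 1 chose and 34.2% and 38.4% when replicates 2 and 3 did. In the 407 single intervals across both positions, the only summit stood within 50 bp of the stronger summit in 226 (55.5%), of the lesser in 93 (22.9%), between them in 66 (16.2%) and outside in 22. An interval over the stronger position only was the more frequent in 5 of the 6 ordered pairs of replicates; for the 177 intervals of replicate 2 looked up in replicate 1, 11 kept the stronger position only and 14 the lesser only.

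Summit positions were compared where 2 replicates both called 2 summits. This was so in 58 regions for replicates 1 and 2, 67 for 1 and 3, and 49 for 2 and 3. The Spearman correlation of spacing over these regions was 0.42, 0.61 and 0.70. The agreement that overlapping intervals give by their limited width alone was not computed. The spacing differed between replicates by a median of 42.5, 49 and 40 bp (43.8 ± 4.6 over the 3 pairs), on median spacings of 265 to 304 bp. Both summits agreed to within 50 bp in 46.6%, 52.2% and 63.3% of regions. The same summit was the stronger in 38 of 58, 49 of 67 and 31 of 49 (67.3% ± 5.2). Where the lesser fold was under 0.75 of the stronger in both replicates, this held in 50 of 59 comparisons. These pool the 3 pairs of replicates, and a region with 2 summits in every list can enter more than once. The comparisons are therefore not independent. In the shared regions the median spacing of replicate 1 was 304 bp against 292 in replicate 2, and 301 against 281 in replicate 3, a smaller gap than between the full lists.

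Of the 42 regions with the form in all 3 replicates, 24 had exactly 2 summits in each. Their mean spacing ran from 187.7 to 493 bp with a median of 302.5 bp, and the coefficient of variation over replicates ran from 1.95% to 41.6% with a median of 12.5%. In 13 of the 24 the same summit was strongest in every replicate, and replicate 1 had the widest spacing in 8.

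**Figure D3:**
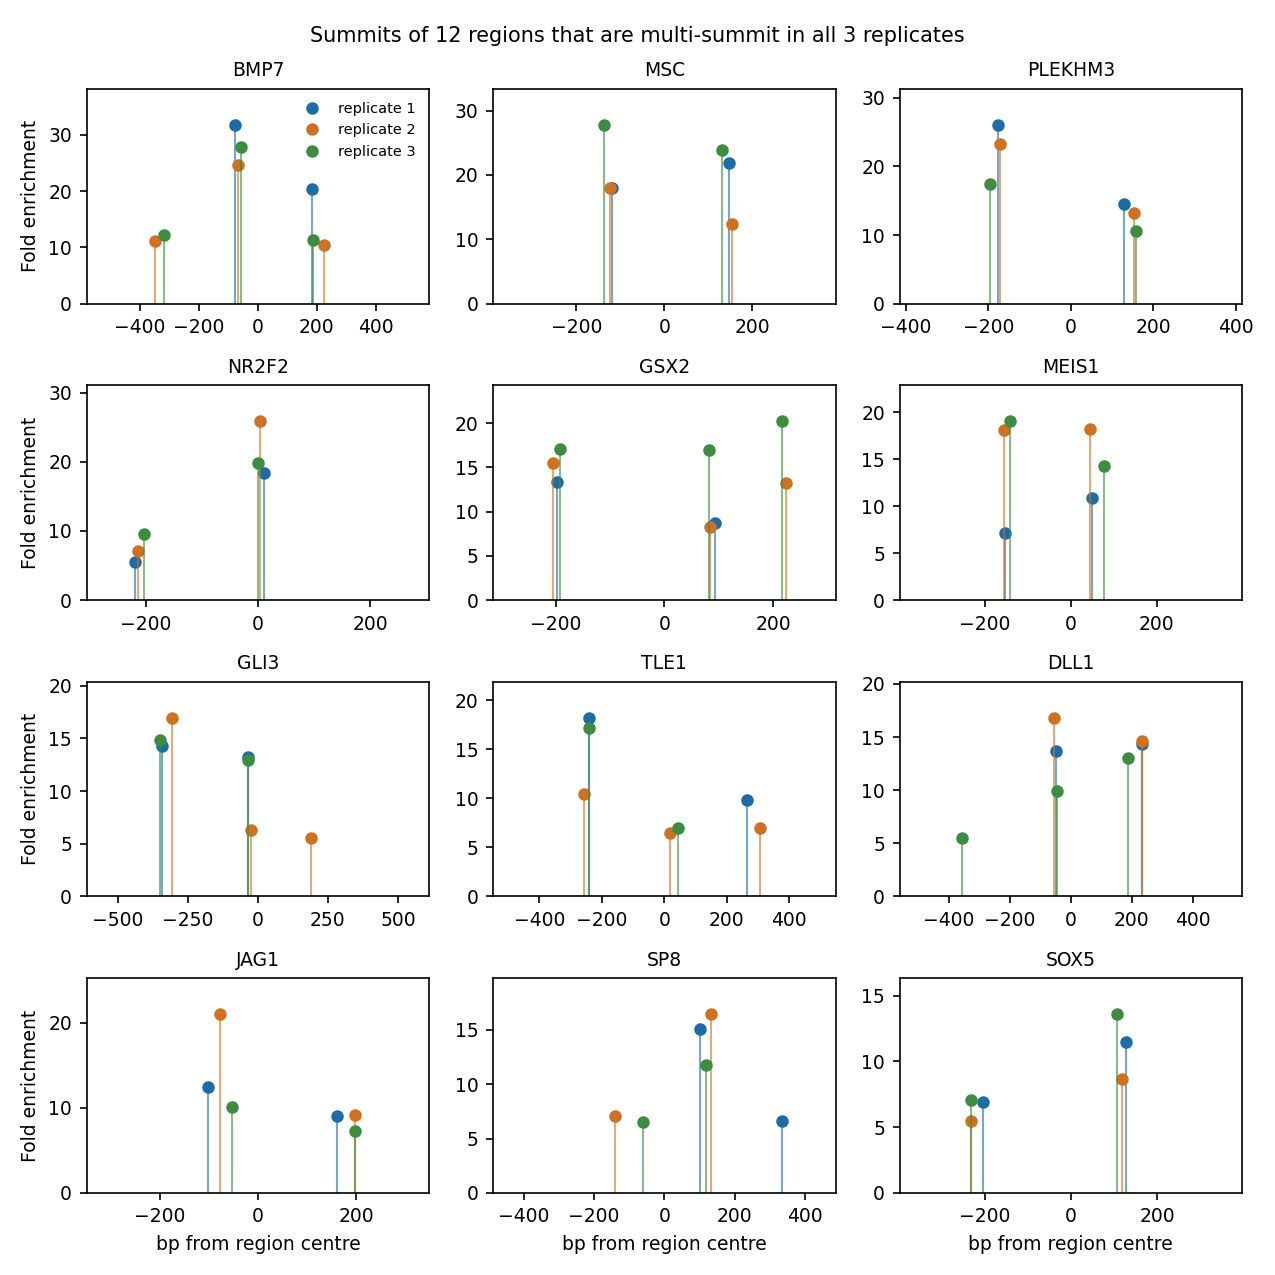
Summits of 12 regions that are multi-summit in all 3 replicates, with position in bp from the region centre on the horizontal axis, fold enrichment on the vertical axis and a colour for each replicate. Summits of the 3 replicates line up closely at MSC, where spacings are 267, 277 and 269 bp, and less at SP8, where they are 233, 274 and 179 bp.

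The steadiest pair of summits lay 87.5 kb from MSC, a basic helix-loop-helix factor (chr8:71753852-71754559). Its summits were 267, 277 and 269 bp apart in replicates 1, 2 and 3, with folds of 17.9 and 21.8, 18.0 and 12.4, and 27.8 and 23.8. Counted from the region's start, the first summit stood at base 234, 230 and 216 and the second at 501, 507 and 485, so the positions held while the stronger summit changed sides.

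Regions named from here on are those of highest fold with the form in every replicate, with the most summits or the steadiest spacing, a few genes of forebrain patterning taken whatever their values, and up to 3 genes of each gene list; each is given with its nearest protein-coding gene, and nearness does not show which gene a region acts on. The strongest lay 243.7 kb from BMP7, a secreted ligand of the BMP family (chr20:56924598-56925654), with a strongest fold of 28.1 ± 3.5 (SD, n = 3). Replicate 1 had 2 summits there, of folds 31.8 and 20.3 and 263 bp apart. Replicates 2 and 3 had 3, of folds 11.2, 24.7 and 10.4, and 12.2, 27.9 and 11.3. The middle summit of these replicates matched the first of replicate 1 in position, at base 461 and 472 against 450 of the region, and was the strongest in all 3.

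Some regions kept the order of their stronger and weaker summit. At chr15:96823131-96823684, 483.1 kb from NR2F2, a nuclear receptor known from the caudal ganglionic eminence, the folds were 5.53 and 18.4, 7.14 and 25.9, and 9.61 and 19.8 in replicates 1, 2 and 3, with spacings of 229, 217 and 203 bp. Inside PLEKHM3 (chr2:207970212-207970966) they were 26.1 and 14.5, 23.3 and 13.2, and 17.5 and 10.6, with spacings of 305, 326 and 354 bp. Inside SOX5, a SOX factor of neural progenitors (chr12:23949662-23950384), they were 6.92 and 11.5, 5.45 and 8.63, and 7.09 and 13.6, with spacings of 331, 351 and 337 bp. In these 3 regions the same summit was the stronger in every replicate.

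In other regions the summits changed rank or number between replicates. Inside MEIS1, a TALE homeodomain factor (chr2:66536790-66537513), the summits were 204, 201 and 219 bp apart, with folds of 7.10 and 10.9, 18.1 and 18.2, and 19.0 and 14.3. Inside DACH2 (chrX:86363799-86364455) they were 401, 380 and 386 bp apart, with folds of 7.34 and 7.46, 9.27 and 6.33, and 8.44 and 7.41. The stronger summit differed between replicates in both regions, while the spacing varied by a standard deviation of 9.64 and 10.8 bp. Near ZNF608 (chr5:124905345-124906069) replicates 1 and 2 had summits 257 and 277 bp apart, with folds of 6.58 and 7.0, and 7.75 and 11.6. Replicate 3 had 3 summits there, of folds 5.40, 12.3 and 6.29, spaced 234 and 275 bp. From the region's start, the first summit stood at base 83, 92 and 162 in replicates 1, 2 and 3. The second stood at 340, 369 and 396, so the first position of replicate 3 was farther from the others. The 2 strongest summits of replicate 3 were the later ones, and the second summit was the strongest in every replicate.

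The 2 regions of chromosome 7 among the strongest resembled each other. Beside SPDYE10, a Speedy family gene (chr7:73155470-73156763), the 2 strongest summits were 488, 528 and 540 bp apart, and inside CASTOR2, a paralogue of the arginine sensor CASTOR1 (chr7:74965466-74966302), they were 476, 505 and 498 bp apart. The second summit was the stronger in every replicate of each, at 27.8, 19.7 and 21.7 beside SPDYE10 and 26.6, 16.0 and 20.7 in CASTOR2. This part of chromosome 7 is known for duplicated segments, and how the authors placed reads that match several copies is not given in the sources used here, so the pair may not be independent regions. Inside MYO10, a myosin of filopodia (chr5:16753768-16754960), the strongest summit lay at base 566, 579 and 609 of the region, with folds of 28.0, 20.2 and 26.4. The second summit of the interval differed: replicate 1 called 1 of fold 4.65 to the right, at base 1098, and replicates 2 and 3 called summits of folds 15.0 and 10.3 to the left, at base 269 in both. Replicate 3 also had a separate single-summit interval of fold 5.26 with its summit at base 1103, so the right position was called there too.

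The region at GSX2 itself lay inside the gene, on chr4:54100348-54100919 (gene span chr4:54100163-54102498). Replicate 1 had summits 272 and 563 bp from the gene's start, with folds of 13.3 and 8.67. Replicate 2 had summits at 265, 553 and 694 bp, with folds of 15.5, 8.25 and 13.3. In replicate 3 they stood at 278, 552 and 687 bp, with folds of 17.0, 17.0 and 20.2. The first and second positions were thus called in every replicate and the third in replicates 2 and 3. The transgene carries the GSX2 coding sequence too, so signal from the gene and from the transgene's own DNA cannot be told apart here.

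A single region stood outside the range of the rest. On chromosome X (chrX:117092009-117096945) it spanned 4937 bp, against 1727 bp for the next widest and a median of 575 bp, and its nearest protein-coding gene, CT83, lay 633.2 kb away. It held 10 summits in replicate 1, 9 in replicate 2 and 12 in replicate 3. Folds ran from 4.08 to 16.0, from 6.29 to 17.6 and from 4.39 to 15.1. Several positions recurred: from the region's start, summits stood at base 2455, 2428 and 2437, at 2837, 2808 and 2815, at 4190, 4210 and 4202, and at 4665, 4691 and 4649 in replicates 1, 2 and 3. Between 2837 and 4190 of replicate 1 the lists differed, with no summit in replicate 1 over 1353 bp and at least 2 in each of the other replicates.

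**Figure D4:**
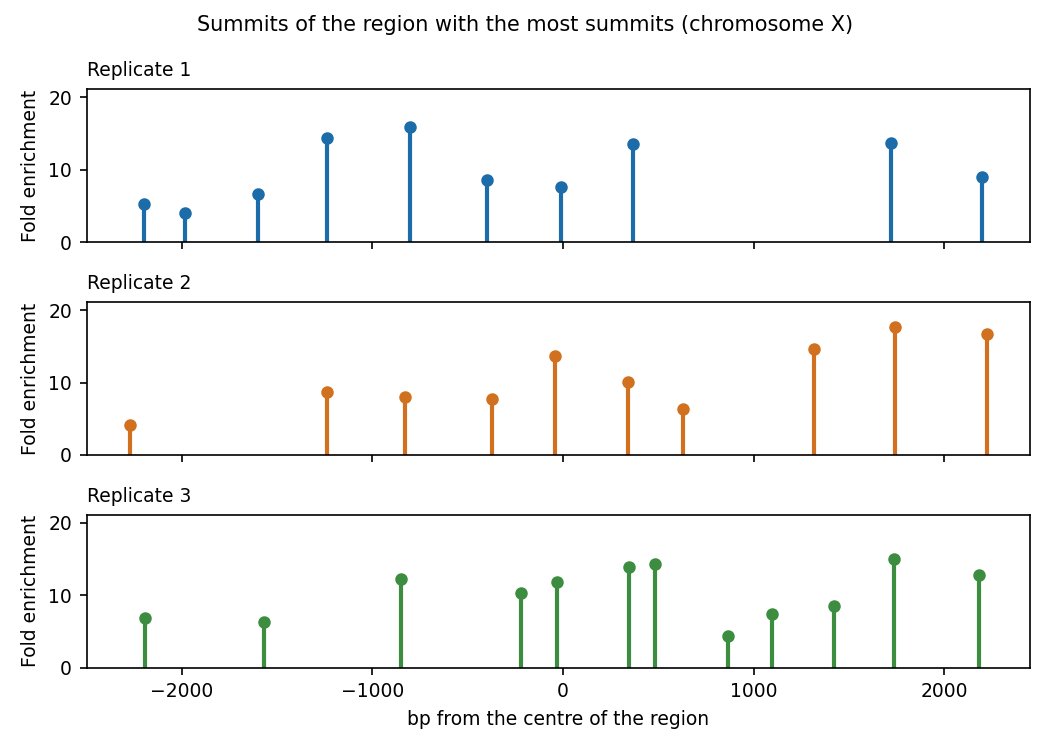
Summits of the widest region, on chromosome X, in each replicate, with distance in bp from the region's centre on the horizontal axis and fold enrichment on the vertical axis. Replicates 1, 2 and 3 show 10, 9 and 12 summits in their multi-summit interval, and replicate 2 has a separate single-summit interval of fold 4.19 near the left edge.

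Other regions with many summits were less even between replicates. At chr14:29391263-29392462, 184.2 kb from PRKD1, a protein kinase, 2, 3 and 4 summits were called, and the region also holds the start windows of the long noncoding RNA LOC102724934. Near SPAG16 (chr2:213251686-213252742) there were 2, 4 and 2, and inside LMO4, a LIM-only protein of the nucleus (chr1:87329790-87331041), 2, 4 and 2. In LMO4 the outer replicates' pairs, 375 and 337 bp apart, matched summits of replicate 2 at base 320 and 696. The region 800.8 kb from POU3F3, a POU homeodomain factor (chr2:104051715-104053441), had 4 summits in 1 interval in replicate 1, 2 separate single-summit intervals in replicate 2 and 2 summits in replicate 3. Its strongest fold was only 6.58 ± 0.44, so many summits did not go with a strong peak there.

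Genes were then grouped by 18 lists of forebrain regions, signalling pathways and other tissues. Over all lists, 60 of 338 genes were nearest to a member region (17.8%), where 519 of all 19970 protein-coding genes were (2.60%). Of the 596 regions, 85 (14.3%, 11.7 to 17.3) were nearest to a listed gene, against 8.43% of single-summit regions and 9.39% of those held by all replicates. These counts describe the regions, and nothing particular to the lists is read from them.

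Among ganglionic eminence progenitor genes 7 of 15 were nearest to a member, through 9 regions (1.51% of members, 0.80 to 2.84, against 0.51% of single-summit regions). SP8, a zinc-finger factor of the dorsal lateral eminence, had the form in every replicate 6.83 kb from the gene (chr7:20793152-20794038). Its strongest summit had folds of 15.1, 16.5 and 11.8 and stayed at base 544, 576 and 561, while the weaker summit lay to its right in replicate 1 and to its left in replicates 2 and 3. GSX1, DLX1, DLX2, DLX5, DLX6 and PAX6, looked for by name, were nearest to no member region. NKX2-1, the factor of the medial eminence, was nearest to 1 (chr14:36442408-36443706, 73.6 kb away). Replicate 1 called a main summit of fold 28.4 and a second of 6.16 there, 693 bp apart, and replicates 2 and 3 called only the main summit, with folds of 24.7 and 29.5. That is a strong region that became a member through a weak side summit in 1 list.

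Striatal projection neuron genes had 4 of 19 nearest to a member (0.84% of members, 0.36 to 1.95, against 0.61% of single-summit regions). SIX3, a homeobox factor of the early forebrain, had 3 summits in replicate 1, 2 in replicate 2 and 1 in replicate 3 across an end of its gene (chr2:44941203-44941975), with folds of 5.35 to 7.96. Neural progenitor genes had 7 of 20, through 12 regions (2.01% against 1.00%). SOX21 was among them, with 2 summits in replicates 2 and 3 and 1 in replicate 1 (chr13:94706615-94707138), all 3 lists placing the main summit at base 363, 419 and 422. SOX2, the progenitor and pluripotency factor, had 2 summits in replicates 1 and 2 in a region 294.1 kb away (chr3:181417572-181418080). Their folds were 8.67 and 7.47, and 7.27 and 8.72, and replicate 3 held no interval there. A nearer SOX2 member, 10566 bp from the gene (chr3:181700620-181701572), had 3, 2 and 1 summits in replicates 1, 2 and 3. Pallial genes had 3 of 24 nearest to a member but 8 regions, since GLI3 held 4 and DBX1 held 3. The 8 regions were 1.34% of members, against 0.42% of single-summit regions and 0.80% of those held by all replicates. DBX1, a homeobox factor of progenitors, had 2 summits in each replicate inside the gene (chr11:20157705-20158324), with folds of 5.54 and 10.4, 6.30 and 14.8, and 6.06 and 8.60, always the stronger on the right.

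Notch pathway genes had 5 of 25 nearest to a member (1.17% of members, 0.57 to 2.40, against 0.57% of single-summit regions). The form was present in at least 2 replicates for 4 of the 5, and for 21 of 60 genes over all lists. The ligand DLL1 had a region 46.7 kb away (chr6:170234807-170235826), with folds of 13.7 and 14.3 in replicate 1, 16.8 and 14.6 in replicate 2, and 5.52, 9.96 and 13.0 in replicate 3. Summits at base 460, 455 and 464 and at 743, 742 and 698 recurred. The ligand JAG1 had 2 summits in each replicate at the end of its gene opposite the start site (chr20:10637370-10638004), 263, 276 and 250 bp apart, with folds of 12.5 and 9.08, 21.0 and 9.21, and 10.1 and 7.24. The stronger JAG1 summit lay outside the gene span and the weaker inside it in all 3. TLE1, a Groucho-type corepressor, held a region inside the gene (chr9:81650603-81651599) whose first summit, at base 257, 241 and 256, had folds of 18.2, 10.4 and 17.2 and was the strongest in each replicate; the further summits differed.

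Hedgehog pathway genes had 3 of 14 nearest to a member, with 6 regions (1.01% against 0.24%), 4 of them at GLI3, the zinc-finger effector and repressor of the pathway. The GLI3 region with the form in all replicates lay inside the gene (chr7:42234661-42235772), and its 2 recurring summits were 306, 283 and 314 bp apart. Their folds were 14.2 and 13.3, 17.0 and 6.29, and 14.9 and 13.0, with a further summit of 5.51 in replicate 2. The other GLI3 regions had the form in a single replicate each. One of these (chr7:42227421-42228234) was a 2-summit interval in replicate 1, of folds 7.77 and 6.22 and 522 bp apart, 2 separate intervals in replicate 3, of folds 8.23 and 7.17, and only the first position in replicate 2, of fold 8.03. SUFU, which restrains GLI factors, and PTCH1, the Hedgehog receptor, were each multi-summit in replicate 3 only.

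Wnt pathway genes had 3 of 24 nearest to a member (0.50% of members against 0.33% of single-summit regions). FZD8, a Frizzled receptor, had the largest fold of them, at 17.6 ± 4.5 (chr10:35637021-35637927). Its main summit had folds of 22.8, 15.4 and 14.6, and a second summit of 5.89 and 7.24 was called in replicates 1 and 2 but not in replicate 3. FGF, BMP and retinoid genes had 5 of 25 (1.01% against 0.56%). Near DUSP6 (chr12:89316562-89317447) the summits of replicates 1 and 2 were 217 and 226 bp apart, with folds of 11.7 and 9.17, and 5.25 and 6.50, and replicate 3 called 1 of fold 12.8. Axon guidance and adhesion genes gave the most regions, 15 from 10 of 34 genes (2.52% against 2.15%), and none of the 10 genes had the form in 2 or more replicates. Genes of the diencephalon and eye had 6 of 20 (1.34% against 0.59%), with IRX3 multi-summit in all 3 replicates (chr16:54289634-54290309). Genes of midbrain to spinal cord had 1 of 20 (0.17% of members, 0.03 to 0.94, against 0.26% of single-summit regions). Lists of other tissues were not all empty. TFAP2A, GATA4 and FOXA2, from the list for mesodermal, endodermal and neural crest factors, were nearest to a member. They made up 3 of its 20 genes (0.50% of members, 0.17 to 1.47, against 0.22% of single-summit regions). Liver and blood genes, lists of tissues foreign to this culture, had 0 of 20 each, with an upper Wilson bound of 0.64% of member regions. Only 0.040% and 0.059% of single-summit regions were nearest to these genes, so 596 regions are too few to show a difference from that level.

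**Figure D5:**
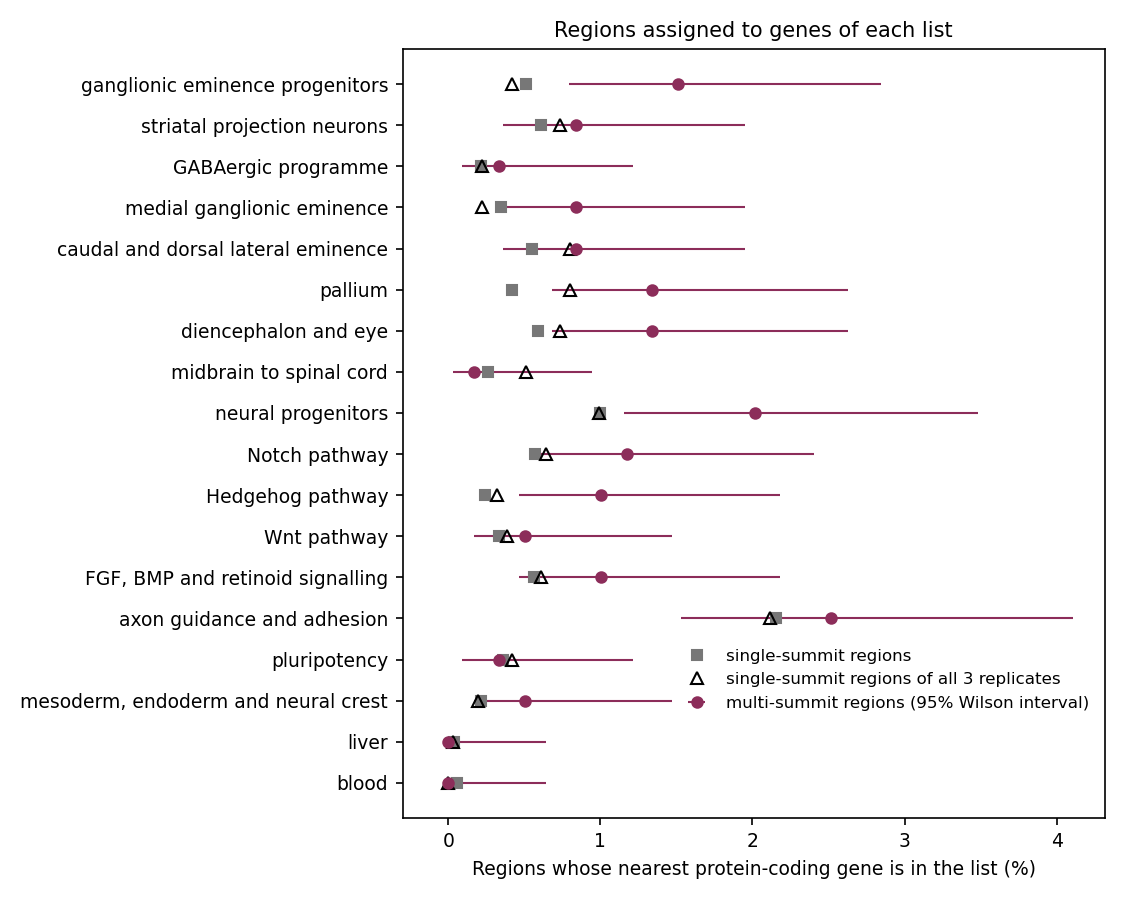
Percent of regions whose nearest protein-coding gene belongs to each of 18 gene lists, for the 596 multi-summit regions (circles, with 95% Wilson intervals), all single-summit regions (squares) and single-summit regions held by all 3 replicates (triangles). Ganglionic eminence progenitor genes are nearest to 1.51% of multi-summit and 0.51% of single-summit regions.

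By location over all regions, the shares of members and of single-summit regions were close. Within 1 kb of either end of a gene stood 90 of 596 (15.1%, 12.5 to 18.2), against 14.2% (13.6 to 14.7) of single-summit regions. Inside genes and farther from an end were 57.0% against 55.9%, and between genes 27.9% against 29.9%. Over 100 kb from any protein-coding gene lay 22.7% against 20.7%. Among regions held by every replicate, 16.1% (12.9 to 20.0) of members were near a gene end against 11.9% (10.8 to 13.0) of single-summit regions, and 14.1% (11.0 to 17.9) against 9.17% (8.19 to 10.3) were within 1 kb of a start site, where the intervals do not overlap. The members of that comparison were wider, and among regions of 487 bp or more the shares near a gene end were 14.4% and 14.8%, so the difference near gene ends was not seen at matched width in the widest quartile group, which holds 326 of the 415. In the next groups down, 392 to 487 bp and 321 to 392 bp, they were 15 of 68 members (22.1%) against 14.3% and 5 of 15 (33.3%) against 10.8%. Shares near a start site were not compared at matched width. By chromosome, members were 2.24% of regions on chromosome 18 to 5.88% on chromosome 20.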

How the data were processed

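Per the labels, chromatin of 3 numbered H9 samples was sonicated and libraries were size-selected below 500 bp. The submitters' processing notes name Trim Galore, Bowtie2, SAMtools, MACS3, deepTools and build hg38; for versions, settings and the control the sources used here give nothing. Each sample has its own narrow-peak list from the authors, with peaks called per sample. The deposited fold enrichment is a linear ratio; significance is deposited as −log10 p and −log10 q, with a smallest −log10 q of 3. The deposited score and name columns were not used. Depth is unknown.

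From these, rows with identical intervals were gathered, summits placed at start plus offset, and intervals merged at 1 bp overlap. Shares have 95% Wilson intervals; means ± SD are over the 3 choosing replicates. The exact two-sided sign-flip test was the only test. A region's fold is its strongest summit's. Genes came from RefSeq GRCh38.p14 (59094 symbols, 19970 protein-coding), as spans without exons. Of 339 genes in 18 lists, 338 matched. Start sites and sequences came from RefSeq promoter windows; chromosome 8 windows were not used here, so shares near a start site leave that chromosome out. No genome sequence was used beyond those windows. The members and lists were chosen with earlier results of these data known. The rule for named genes took the nearest gene of the 10 strongest regions multi-summit in all replicates, the 5 with most summits, the 5 of steadiest spacing (between the 2 strongest summits of each replicate, which need not be the same positions), 9 fixed patterning genes and up to 3 per list. Regions shared by several rules count under each. The steps were tested on simulated data. Python 3.11.15, pandas 2.3.3, NumPy 2.4.6 and SciPy 1.17.1 were used. Alternatives were a −log10 q minimum of 10, a spacing minimum of 150 bp, a lesser fold of at least 0.75 of the strongest, stricter overlap, other gene windows and leaving out each replicate.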

Additional observations from a re-analysis of the deposited data

Results flagged for a closer look

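Contigs other than chromosomes 1 to 22 and X, which no comparison used, also held multi-summit intervals. Replicate 1 had 9 among 77 intervals there (11.7%, 95% Wilson interval 6.27 to 20.7), replicate 2 had 11 among 64 (17.2%, 9.88 to 28.2) and replicate 3 had 13 among 82 (15.9%, 9.51 to 25.3). These shares lay above the 3.43%, 2.61% and 2.83% of the chromosomes used. Of them, 5, 9 and 12 lay on 2 unplaced contigs, which held 18, 24 and 28 intervals in all. No control list was analysed beside them.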

How the results depend on the processing

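Of 51 alternative values, 35 kept within the spread of the value reported or, for counts, within 1.5 times. The number of multi-summit regions, 596, became 152 with a −log10 q of at least 10 and 390 with lesser summits of at least 0.75 of the strongest fold, and ran from 385 (without replicate 1) to 506 when 1 replicate was left out. The same 0.75 minimum took recurrence of the form from 31.1% to 13.5%, against 1.25% for single-summit intervals; leaving out a replicate gave 30.6% to 31.9%. Median spacing, 255.7 bp, stayed within its spread and ran from 235 to 267 bp without 1 replicate. The fold ratio, 0.77, became 0.81 at the higher q, 0.75 with summits at least 150 bp apart, 0.87 with the 0.75 minimum (which sets it) and 0.61 as a ratio of −log10 q, and 0.76 to 0.77 without 1 replicate. The difference in spacing between replicates, 43.8 bp, became 32.2 bp at the higher q and 40 to 49 bp without 1 replicate. The share held by all replicates, 69.6%, was 80.2% to 82.3% when only 2 lists had to hold a region. The share near a gene end, 15.1%, became 10.5% at the higher q, 33.6% within 5 kb, 9.56% for protein-coding genes only, and 13.2% to 18.2% without 1 replicate. Apart from those changes that an alternative's own construction brings, the cause was not tested. No paired analysis was possible because the input libraries, which share the replicate numbers, have no values here and all lists belong to 1 group. Depth is unknown, so a summit missing from a list can be below what that list could call.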

Other observations

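Some genes were nearest to several multi-summit regions. Of the 519 genes nearest to any, 61 had more than 1. ZNF608, a zinc-finger gene of chromosome 5, had 6 among 37 GSX2 regions, followed by GLI3 with 4 of 18 and PARD3B, a cell polarity gene, with 4 of 16. DBX1 had 3 among only 4 regions and NOL4L 3 of 4, while the SOX factors SOX5 and SOX6 had 3 of 23 and 3 of 18. A pair of the ZNF608 regions were multi-summit in all 3 replicates, and they lay 373.0 and 156.9 kb from the gene. GPC3, a glypican of the cell surface, had 3 of 10, each multi-summit in 2 replicates. These genes were picked by count after the values were seen, and genes with more regions had more chances to hold a member.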
